A study of Mus musculus with 4 samples.

Results

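The solute carriers are membrane proteins that move sugars, amino acids, nucleotides, metals, inorganic ions and other small molecules across the plasma membrane and the membranes of organelles. The members described here are the probe sets that the platform annotation assigns to exactly 1 gene symbol made of Slc and a family number, with Slc11a1 left out by rule. They were 140 of 13069 non-control probe sets, stood for 110 of 6137 named genes, and lay mostly on array type A (108 of 6529) with the rest on type B (32 of 6540). A further 4 probe sets that carry an Slc symbol beside a second symbol were not used. The symbol also brings in 2 genes that encode no carrier, Slc4a1ap, an adaptor protein of the anion exchanger band 3, and Slc9a3r1, a scaffold protein that holds ion exchangers at the membrane.

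The study hybridised RNA of cells washed from the peritoneum of wild-type mice and of mice deficient for C/EBP epsilon, the product of Cebpe and a transcription factor of late granulocyte maturation. All mice came from a cross of 129/SvEv with NIH Black Swiss, were 6 to 8 weeks old and had received 2 ml of 4% thioglycollate broth into the peritoneum 24 h before lavage, so the irritant was common to both groups and no uninjected group was used here. The labels give 4 mice per genotype and differential counts of about 30% monocytes, 60% neutrophils and 7 to 10% lymphocytes in either genotype. They mark the deficient mice as -/- and name no promoter or Cre that would limit the loss to 1 lineage, and their text on how cells of several mice were combined is cut short. Array types A and B carry different probe sets, and each genotype had 1 array of either type, so no test was possible and no difference has a replicate check.

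A phagocyte that enters an inflamed cavity takes up glucose through facilitative carriers of the Slc2 family and feeds it to glycolysis, whose lactate leaves through monocarboxylate carriers of the Slc16 family. Amino acids enter through sodium-coupled carriers and through exchangers built of a light chain of the Slc7 family and the heavy chain Slc3a2. Carriers of the Slc25 family pass nucleotides, carboxylates and cofactors over the inner mitochondrial membrane, and those of the Slc30 and Slc39 families set zinc in the cytosol.

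Values are intensities, the brightness of a probe set on a linear scale, and the arrays of a type differed by a scale factor of 0.999 to 1.001. A floor was set at the median of the scaled values of a type (1036.5 on A and 690.2 on B). Where both genotypes exceeded the floor, the difference is given as a log2 ratio of deficient to wild-type signal. Where 1 did, the fold against the floor is a lower limit, given with the words at least and called a bound, and where neither did there is no ratio. Repeat probe sets of a gene disagreed with a pooled SD of 0.38 log2 units over 424 genes, and this is measurement error only, with no spread between mice. As a check of the labelled cells, the neutrophil marker S100a8 was at 66423 in wild-type cells and at 62899 in deficient ones, 13 of 14 named monocyte and macrophage markers were above the floor in both genotypes, and 0 of 8 named T and NK cell markers were. Of 9 neutrophil markers with a ratio all 9 were below 0 (7 under bacterial-control or quantile scaling and 8 under loess), against 49% of all measured genes. Among them 4 were lower by 2-fold or more, against 114 of 3132 measured genes. The summed signal of the list was 319.5 floors in wild-type and 244.5 in deficient cells. For monocyte and macrophage markers these sums were 614.2 and 551.7, with 5 ratios above 0 and 8 below. These ran from -2.30 for Mrc1 to 0.97 for Ccr2. Also above the floor in both genotypes were 6 of 7 B cell markers and 3 of 7 of mast cells and basophils. The same held for 4 of 10 mesothelial and fibroblast markers, all 4 below 0. It held as well for 2 of 4 erythroid, 2 of 4 dendritic and 1 of 4 eosinophil markers. In such mixed cells, fewer cells of a type and less RNA per cell cannot be told apart, and the part of cell composition in the carrier ratios was not tested. The targeted gene itself was not analysed here.

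Among carrier probe sets measured in both genotypes, 1 of 59 differed by 2-fold or more (1.69%, against 6.84% of 5903 over the series). It was that of the glucose carrier Slc2a1, lower in deficient cells. This count depended on the settings. Under scaling to the bacterial controls 4 of 60 were higher and 1 lower, beside 488 and 110 of 5871 over the series. With a lower floor 3 of 90 were higher and 5 lower, beside 660 and 630 of 8426. With a higher floor Slc2a1 had only a log2 bound of -0.58, under 2-fold. Of 15 probe sets with a bound at the median floor, 3 reached 2-fold (20%, against 21.5% of 1263 over the series). They were those of Slc16a1, a lactate and pyruvate carrier, Slc7a6, an amino acid exchanger chain, and Slc35c2, of the nucleotide sugar carrier family. All 3 were higher in deficient cells, but the second probe sets of Slc16a1 and Slc7a6 were below the floor in both. The 6 amino acid carriers with a ratio were all below 0, against 49% of all measured genes, by 1.37-fold at most. Under scaling to the bacterial controls 3 of them turned above 0.

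Of the 140 probe sets, 59 had a ratio, 15 a bound and 66 no ratio. The share with a ratio was 42.1%, against 45.2% of all probe sets. Among the 59, 1 was past 2-fold, which is 1.69%, against 6.84% of the 5903 measured probe sets of the series and 6.71% of those with 1 symbol. In the higher direction the count was 0 of 59, against 3.39% of all measured probe sets, and in the lower direction 1 of 59, against 3.46%. Repeat probe sets agree better at a mean signal of 3 floors and above (SD 0.34 over 245 genes, against 0.46 over 74 below). Each SD is over genes with 2 or more measured probe sets in that range. At 3 floors and above, 0 of 32 carriers (0%) and 6.56% of all 3612 were past 2-fold. Below 3 floors it was 1 of 27 carriers (3.7%) and 7.29% of 2291. The typical size of a difference was the same as elsewhere, with a median absolute log2 ratio of 0.30 among the carriers and 0.31 among all measured probe sets. Their log2 ratios ran from -1.25 to 0.99 with an SD of 0.48, against -3.05 to 3.43 and an SD of 0.55 for all, though a set of 59 spans less than one of 5903 by its number alone. With scaling to the bacterial hybridisation controls, which moved the median of all measured genes from 0.01 to 0.24, 4 carrier probe sets passed 2-fold upwards and 1 downwards, beside 488 upwards and 110 downwards in the whole series in place of 200 and 204. A floor at the 30th percentile, which lets dimmer probe sets in, gave 3 upwards and 5 downwards of 90. The whole series then had 660 upwards and 630 downwards of 8426.

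**Figure D1:**
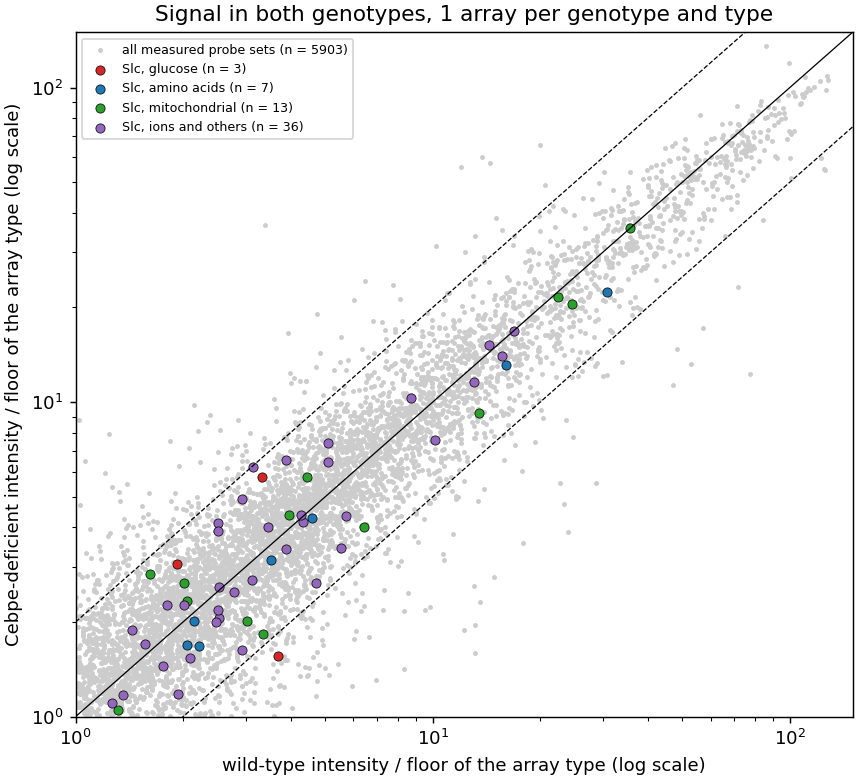
Each point is a probe set above the floor in both genotypes, with wild-type intensity on the x axis and deficient intensity on the y axis, both divided by the floor of the array type and on log scales. Grey points are all 5903 measured probe sets, coloured points the 59 of solute carriers, the solid line marks equality and the dashed lines 2-fold, and a single carrier, Slc2a1, lies beyond them.

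By gene, 50 of the 110 had a ratio, 9 only a bound and 51 neither. Of the 50, 28 were below 0 (56%, against 49% of 3132 measured genes), and their median log2 ratio was -0.09 beside 0.01 for all genes. Under bacterial-control scaling that median was 0.19 and 36% of carriers were below 0, against 29.4% of all genes.

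The promoters of 4 carriers are shown because the results turn on them: Slc2a1, the carrier past 2-fold, Slc35c2, higher on both array types, and the adenine nucleotide carriers Slc25a4 and Slc25a5, close copies whose ratios differed. Each is the 250 bases before the annotated gene start in RefSeq on mouse build GRCm38.p6, read 5′ to 3′ on the strand of the gene; Slc35c2 has 2 starts in that table and the one farther upstream is given. They lie at chr4:119108495-119108744 (plus strand), chr2:165287839-165288088 (minus strand), chr8:46211063-46211312 (minus strand) and chrX:36795347-36795596 (plus strand), in the same order. Capitals mark matches on either strand to TTNNGNAA, a consensus of C/EBP factors, to ACGTG, the core bound by hypoxia-inducible factors, and to GGGCGG, the GC box bound by Sp1.
Slc2a1: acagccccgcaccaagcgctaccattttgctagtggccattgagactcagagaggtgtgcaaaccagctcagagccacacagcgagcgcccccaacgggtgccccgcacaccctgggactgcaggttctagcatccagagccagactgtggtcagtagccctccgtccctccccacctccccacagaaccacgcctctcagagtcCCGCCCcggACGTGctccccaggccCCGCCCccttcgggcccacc
Slc35c2: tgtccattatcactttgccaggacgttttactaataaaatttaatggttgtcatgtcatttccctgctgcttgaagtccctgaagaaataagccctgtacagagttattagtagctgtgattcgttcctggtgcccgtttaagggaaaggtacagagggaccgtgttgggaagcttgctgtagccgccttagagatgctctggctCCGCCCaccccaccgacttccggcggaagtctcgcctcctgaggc
Slc25a4: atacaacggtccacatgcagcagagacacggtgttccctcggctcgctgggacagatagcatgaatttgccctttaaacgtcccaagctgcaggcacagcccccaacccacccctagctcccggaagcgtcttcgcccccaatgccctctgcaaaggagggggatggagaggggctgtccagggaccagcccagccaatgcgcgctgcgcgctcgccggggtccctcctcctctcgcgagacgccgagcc
Slc25a5: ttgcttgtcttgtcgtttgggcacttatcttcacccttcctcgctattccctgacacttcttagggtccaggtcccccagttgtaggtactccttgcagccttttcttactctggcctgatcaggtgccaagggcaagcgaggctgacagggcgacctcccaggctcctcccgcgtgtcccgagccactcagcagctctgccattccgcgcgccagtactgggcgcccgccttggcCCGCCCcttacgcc

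The Slc2a1 window held 1 match to ACGTG and 2 to GGGCGG, those of Slc35c2 and Slc25a5 held 1 GGGCGG each, and that of Slc25a4 held none of the 3 motifs. In these windows 0 of 4 held TTNNGNAA, which says only that these letters are not there. No base was shared by matches of different motifs. Windows of the same length were found for 92 of the 110 carrier genes, and 24 of them held TTNNGNAA (26.1%, against 37% of 27025 genes in the table), 22 held ACGTG (23.9%, against 16.5%) and 51 held GGGCGG (55.4%, against 33%). The 27025 genes are not limited to those on the arrays, for which no share was computed, so these gaps cannot be ascribed to the carriers. Among the 42 with a window and a ratio, the 9 that held TTNNGNAA had a median log2 ratio of -0.15, with 5 below 0, and the other 33 one of -0.10, with 18 below 0. A match is a description of letters and not of binding.

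Among the glucose carriers, 3 of 5 genes had a ratio and they went both ways. Slc2a1, the widely expressed carrier that sets basal glucose uptake, was at 3830 in wild-type cells and at 1612 in deficient ones. That is 2.38-fold lower, a log2 ratio of -1.25, from 1 probe set on A. A floor at the 70th percentile put its deficient reading below the floor and left a log2 bound of -0.58, which is under 2-fold. Slc2a8, an intracellular hexose carrier, read 3450 and 5976, 1.73-fold higher. Slc2a2, the carrier of liver and pancreatic islets, read 1328 and 2117 on B, 1.59-fold higher (a log2 ratio of 1.02 under bacterial-control scaling), while its other probe set, on A, was below the floor in both genotypes at 161 and -94. Slc2a3, a high-affinity carrier known from neurons and leukocytes, was below the floor by both of its probe sets, at 432 and 295 and at 350 and 168. The insulin-responsive Slc2a4 was below it as well.

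Genes that use the glucose were described from a list chosen for this purpose. Of 11 named genes of glucose use, 9 had a ratio, 7 of them below 0 (2 under bacterial-control scaling, 6 under loess or quantile scaling), and 0 reached 2-fold, against 6.64% of all measured genes. Their median log2 ratio was -0.22. Ldha, which makes lactate, stood at -0.42, Hif1a, the oxygen-regulated factor that acts on many glycolytic genes, at -0.40, and Hk1, which traps glucose as its phosphate, at -0.22. Pfkl, a phosphofructokinase subunit, stood at 0.45.

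Amino acid carriers were few above the floor, and those above it in both genotypes had ratios on 1 side. Of 14 genes, 6 had a ratio, 2 a bound and 6 neither. All 6 ratios were below 0, against 49% of all measured genes, with a median of -0.23. They ran from -0.45 to -0.09, beside an SD of 0.38 for repeat probe sets. Of the 6 ratios 0 reached 2-fold, against 6.64% of all measured genes. The 2 bounds went opposite ways, with Slc7a6 at least 2.04-fold higher and Slc38a2 at least 1.05-fold lower. Under scaling to the bacterial controls 3 of the 6 ratios were below 0, against 29.4% of all genes. Their median was then -0.02, still under that of all genes at 0.24.

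Slc3a2, the heavy chain CD98 that carries the exchangers to the surface, read 21242 and 15527 by its brighter probe set and 11083 and 9094 by the other, log2 ratios of -0.45 and -0.29. Both are of the type whose probes are shared within a gene family. Its light chain Slc7a8, an exchanger of neutral amino acids, read 2292 and 1743, a log2 ratio of -0.40. Slc7a6, another light chain that pairs with Slc3a2, went the other way, with 252 in wild-type and 2120 in deficient cells by 1 probe set, at least 2.04-fold higher. Its other probe set was at -139 and -96, below the floor in both, so the difference rests on a single dim probe set.

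Slc7a2, the cationic carrier that brings in arginine, read 2130 and 1750, a log2 ratio of -0.28. Slc7a1, the other widely expressed arginine carrier, was below the floor at -675 and -180. Arg1, which splits the arginine that these carriers import, read 80067 and 12695 on the same array type, a log2 ratio of -2.66. Nos2, which makes nitric oxide from arginine, exceeded the floor in wild-type cells alone, at 1253 and 109.

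Slc1a5, the glutamine carrier, read 2222 and 2083, a log2 ratio of -0.09. Slc38a5 and Slc38a10, of the sodium-coupled neutral amino acid family, read 3661 and 3253 and 4751 and 4449, or -0.17 and -0.10. Slc38a2, the carrier of that family induced when amino acids run short, was near the floor at 1091 and 738. The glutamate carriers Slc1a1, Slc1a2 and Slc1a6 and the neutral carrier Slc1a4 were below it in both genotypes. Of 17 named genes of the amino acid response and of amino acid use, 8 had a ratio and 1, Arg1, was past 2-fold, against 6.64% of all measured genes. Atf4, the factor of the amino acid response, stood at -0.16 and its target Asns at 0.01. Got1, the cytosolic aspartate aminotransferase, was at least 2.68-fold higher, from 213 to 2779.

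**Figure D2:**
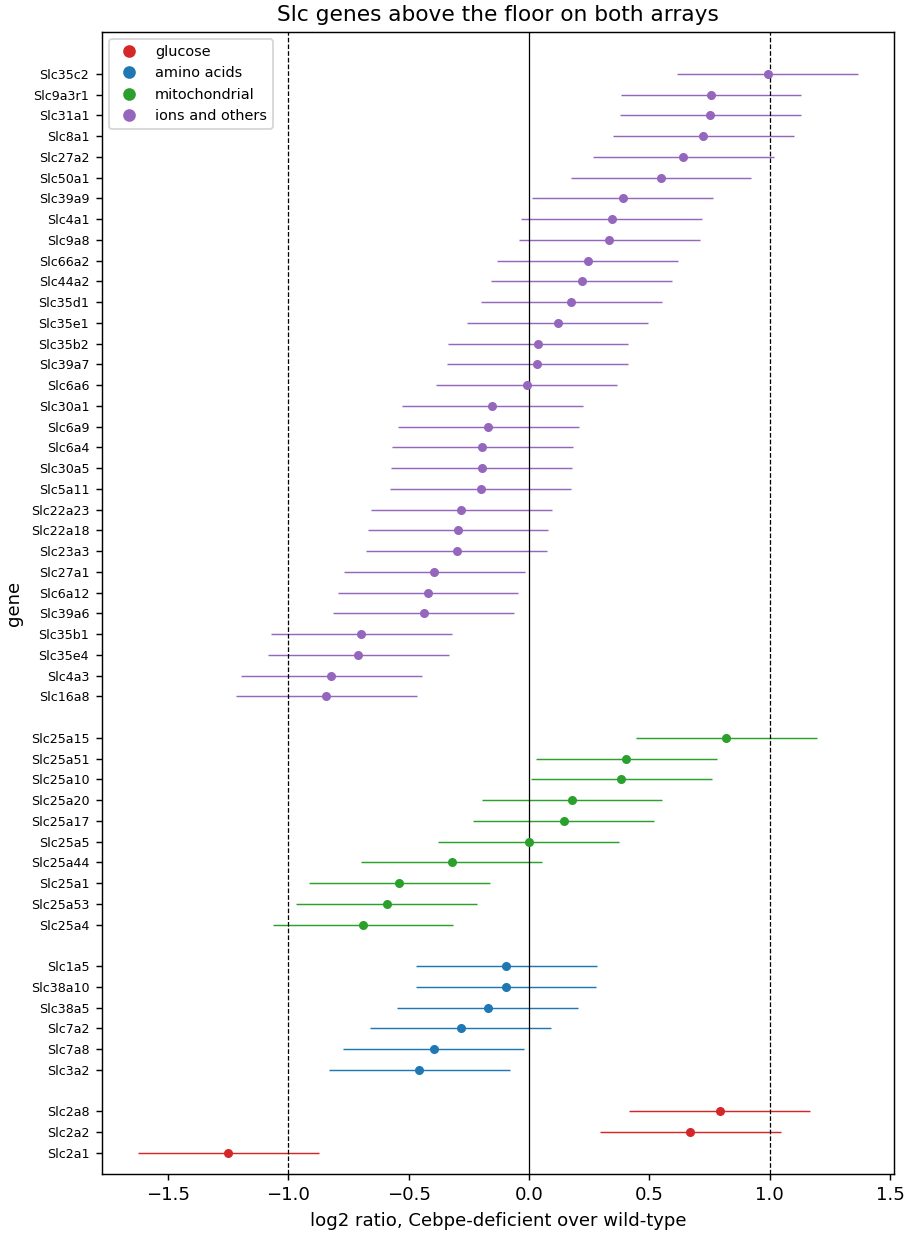
Each point is the log2 ratio, deficient over wild-type, of 1 of the 50 solute carrier genes above the floor in both genotypes, ordered within the 4 substrate groups, and the bars are 0.38 log2 units on each side, the pooled SD of repeat probe sets over all genes. The dashed lines mark 2-fold, and only Slc2a1, at -1.25, lies past them, while Slc35c2 stands at 0.99.

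Mitochondrial carriers were the group most often above the floor, with 10 of 15 genes and 13 of 21 probe sets. The ratios fell 5 on each side of 0 with a median of 0.07, and 0 of 10 reached 2-fold, against 6.64% of all measured genes. Under bacterial-control scaling the median was 0.35 and Slc25a15 passed 2-fold at 1.02. Slc25a15, which exchanges ornithine for citrulline in the urea cycle, was the highest, at 1674 and 2956, a log2 ratio of 0.82. Slc25a51, which imports NAD, and Slc25a10, the dicarboxylate carrier, stood at 0.40 and 0.38. The carnitine carrier Slc25a20, which brings fatty acids to oxidation, stood at 0.18 and Slc25a17, a member of the family that sits in peroxisomes, at 0.14.

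On the lower side, Slc25a1, which exports citrate for lipid synthesis, read 13952 and 9607, a log2 ratio of -0.54. Slc25a53 stood at -0.59 and Slc25a44, a carrier of branched-chain amino acids, at -0.32 beside a bound in the same direction by its second probe set.

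The adenine nucleotide carriers, which swap ATP for ADP, are encoded by near copies whose ratios differed. Slc25a4 read 3459 and 1896 on A and 4441 and 2759 on B, log2 ratios of -0.87 and -0.69. Slc25a5 read 23191 and 22448 and also 25458 and 21306 on A, and 24643 and 24659 on B, log2 ratios of -0.05, -0.26 and -0.0019. The lower Slc25a4 signal was seen on both array types, and each of its ratios lay below each of the Slc25a5 ratios. All 5 probe sets are of the family-shared type, so signal of one copy may be read on the probes of the other, and without suffixed probe sets neither gene was measured.

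The remaining carriers, of ions, metals, nucleotide sugars, lipids and other substrates, made up 76 genes, of which 31 had a ratio, 7 a bound and 38 neither. Of the 31, 16 were below 0, with a median of -0.01, and 0 of 31 reached 2-fold, against 6.64% of all measured genes. Under bacterial-control scaling the median was 0.20, and Slc35c2 at 1.19 and Slc8a1 at 1.07 passed 2-fold.

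Carriers of the Slc35 family, which bring nucleotide sugars and related substrates into the Golgi and endoplasmic reticulum, spread to both sides. Slc35c2, which has been linked to Notch fucosylation, read 3250 and 6463 on A, 1.99-fold higher. On B its probe set read -346 and 2312, at least 3.35-fold higher, so both array types gave a higher reading in deficient cells. Slc35b1, a carrier of the endoplasmic reticulum, read 5754 and 3553, a log2 ratio of -0.70, and Slc35e4 2003 and 1225, or -0.71. Slc35b2, which supplies the sulfate donor to the Golgi, stood at 0.04, Slc35d1 at 0.18 and Slc35e1 at 0.12. With equal medians in place of equal trimmed means, Slc35c2 on A was at 1.05 and so past 2-fold.

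The monocarboxylate carriers Slc16a1 and Slc16a8 differed in direction. Slc16a1, through which lactate and pyruvate pass, read 534 and 2186 on B, at least 3.16-fold higher, but 497 and 184 on A, below the floor in both. A floor at the 70th percentile left a log2 bound of 0.10. Slc16a8, known from the retinal pigment epithelium, read 3022 and 1686, a log2 ratio of -0.84. Bsg and Emb, the membrane chaperones of this family, stood at -0.53 and 0.32.

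Among 15 bounds, 3 were of 2-fold or more, those of Slc35c2, Slc16a1 and Slc7a6, and all 3 were higher in deficient cells. Over the series 21.5% of 1263 bounds reached 2-fold, 12% in the higher and 9.5% in the lower direction, so 3 of 15 is about the background. The other 12 were between the floor and 1.70 times the floor in the brighter genotype.

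**Figure D3:**
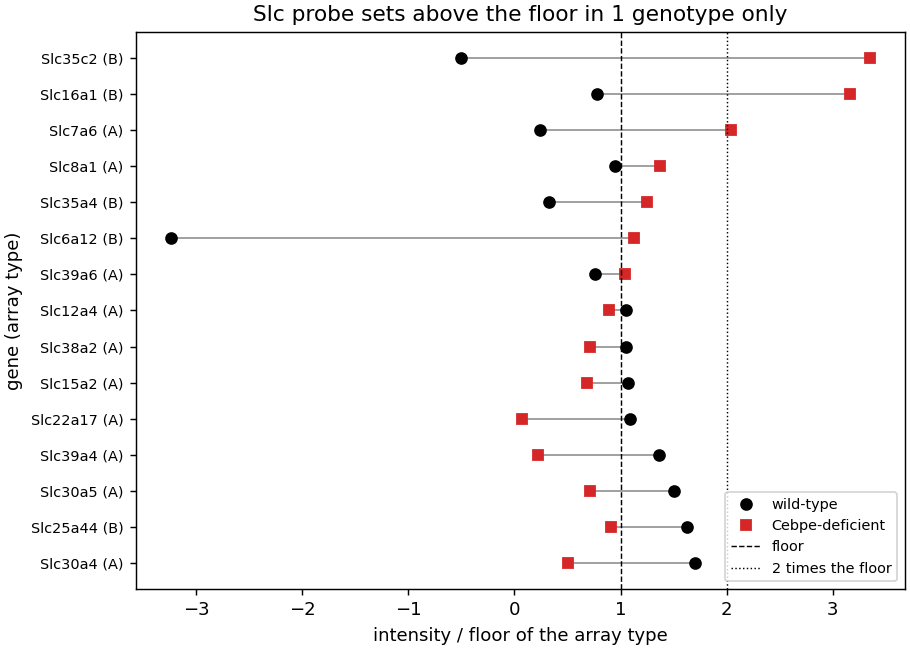
Each row is 1 of the 15 solute carrier probe sets above the floor in 1 genotype only, with its array type in brackets, and the x axis is intensity divided by the floor of that type. Circles are wild-type and squares deficient cells, the dashed line is the floor and the dotted line 2 floors, and only Slc35c2, Slc16a1 and Slc7a6 reach the dotted line.

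Zinc carriers of the efflux family Slc30 were on the lower side where measured. Slc30a1, which exports zinc from the cell, read 1915 and 1726, a log2 ratio of -0.15. Slc30a5, which loads zinc into the secretory pathway, read 1726 and 1510 on B, or -0.20, with a bound in the same direction on A. Slc30a4 exceeded the floor in wild-type cells alone, at 1760 and 519, at least 1.70-fold lower. Under bacterial-control scaling Slc30a1 and Slc30a5 turned above 0. In the import family Slc39, Slc39a9 stood at 0.39, Slc39a7 at 0.03 and Slc39a6 at -0.44. The second Slc39a6 probe set went the other way and only just reached the floor in deficient cells, at 785 and 1078. Slc39a4 read 1413 and 228 by 1 probe set, at least 1.36-fold lower, and 460 and 866 by the other, which gave a log2 ratio of 0.91 for the gene once the floor was at the 30th percentile. The metallothioneins Mt1 and Mt2, which bind zinc and follow its level, stood at -0.92 and -0.52. Of 11 named genes of metal handling, 9 had a ratio, and 1, the ferroxidase gene Cp at -1.23, was past 2-fold, against 6.64% of all measured genes. Under bacterial-control scaling Cp stood at -0.88 and 0 were past 2-fold, and with equal medians 2 were.

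Slc31a1, the copper importer, gave ratios of opposite sign on A, with 3026 and 5102 by 1 probe set (0.75) and 1404 and 1213 by the other (-0.21). Atp7a, which exports copper, stood at 0.51.

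The taurine carrier Slc6a6, which holds the osmolyte that neutrophils are rich in, was measured far above the floor by 3 probe sets and hardly differed. They read 17514 and 17396, 16181 and 14541, and 14861 and 15736, log2 ratios of -0.01, -0.15 and 0.08. Others of this family are best known from the nervous system or kidney and were also above the floor: Slc6a9, a glycine carrier, at 8999 and 8014, Slc6a12, a betaine carrier, at 7008 and 5250, and the serotonin carrier Slc6a4 at 1313 and 1148. Their log2 ratios were -0.17, -0.42 and -0.19. A second probe set of Slc6a12 read -2232 and 777, at least 1.12-fold higher in deficient cells, so its probe sets give neither 1 level nor 1 direction.

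Slc4a1, the anion exchanger band 3 of red cells, read 4487 and 4296 on A and 3504 and 4457 on B, log2 ratios of -0.06 and 0.34. Other erythroid genes went elsewhere, with Hba-a1 at 0.04, Hbb-b2 at -1.62 and Alas2 at least 6.92-fold lower. The 4 named erythroid markers summed to 149.5 floors in wild-type and 96.9 in deficient cells, and the part of red cells in Slc4a1 was not tested. Slc4a3, another exchanger of chloride for bicarbonate, read 4878 and 2761, a log2 ratio of -0.82. The sodium-calcium exchanger Slc8a1 read 1723 and 2851 on B, or 0.72, with a bound in the same direction on A. Its other probe set on A was below the floor in both genotypes, at 468 and 546.

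The sodium-proton exchanger Slc9a8, of the Golgi, stood at 0.33 and the scaffold Slc9a3r1 at 0.76, from 4015 to 6783. Fatty acid transport proteins split, with Slc27a2 at 0.64, from 2588 to 4035, and Slc27a1 at -0.18 on A and -0.39 on B. The other Slc27a2 probe set read 221 and 52, below the floor in both genotypes, so its difference rests on 1 probe set. Slc50a1, a sugar carrier of internal membranes, stood at 0.55, Slc66a2 at 0.24 and the choline carrier-like Slc44a2 at 0.22. The organic ion carriers Slc22a18 and Slc22a23 stood at -0.29 and -0.28, Slc23a3 at -0.30 and the inositol carrier Slc5a11 at -0.20. Slc22a17, a receptor for lipocalin 2, was just above the floor in wild-type cells and under it in deficient cells (1124 and 69). The lipocalin gene Lcn2 read 39476 and 27656. Atp1b3 and Atp1b1, subunits of the pump that holds the sodium gradient, stood at -0.48 and -0.43. Of 8 named partner genes with a ratio 0 reached 2-fold, against 6.64% of all measured genes, a count too small to set apart from that share. The partners include Slc9a3r1, which is also counted among the members.

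Repeat probe sets give the only check within these arrays. The 7 genes with more than 1 measured probe set gave a pooled SD of 0.27 log2 units, against 0.38 over 424 genes. Slc25a4, Slc25a5, Slc27a1 and Slc3a2 kept 1 sign in all their measured probe sets. Slc31a1, Slc4a1 and Slc6a6 had both signs, with the widest gap in Slc31a1 at 0.96. None of these 7 genes had measured probe sets 1 log2 unit or more apart. Genes whose repeats gave a bound or no ratio, such as Slc39a4 and Slc7a6, are outside this check.

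**Figure D4:**
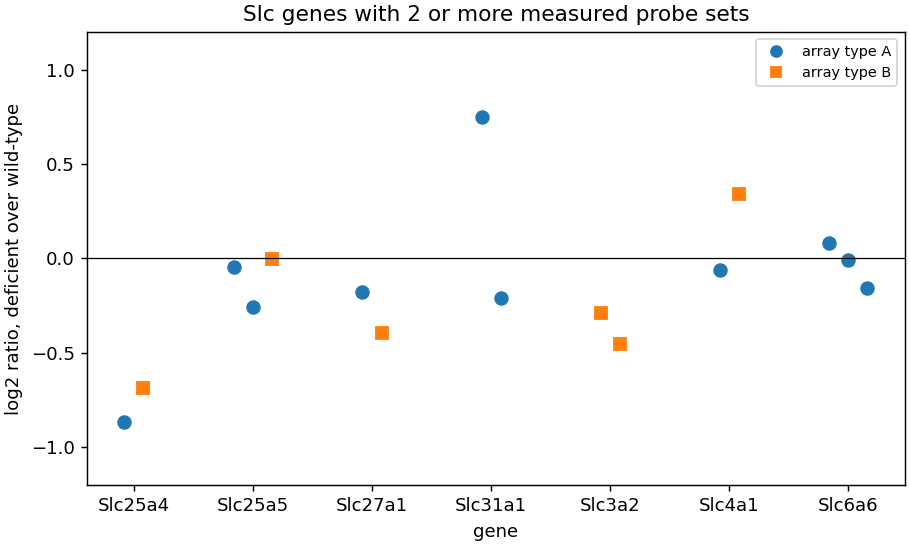
Each point is the log2 ratio, deficient over wild-type, of a measured probe set, for the 7 solute carrier genes with more than 1, with circles for array type A and squares for B. Slc25a4 is below 0 on both types, at -0.87 and -0.69, and the probe sets of Slc31a1 lie on opposite sides of 0.

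The 51 genes with all probe sets at or below the floor held many carriers known from other organs. Among them were the bile acid carriers Slc10a1 of liver and Slc10a2 of ileum, the kidney carriers Slc12a1, Slc12a3, Slc22a6 and Slc34a1, and the brain carriers Slc1a2 and Slc32a1. Several widely expressed carriers were also below it, such as the nucleoside carrier Slc29a1 at -3544 and -2344, the folate carrier Slc19a1 at -1527 and -1288, the potassium-chloride carrier Slc12a7 at -2296 and -2455 and the creatine carrier Slc6a8 at -636 and -626. Of the 140 probe sets, 27 were below 0 in wild-type cells and 28 in deficient cells, 20 of them in both. A reading below 0 gives no level. The phosphate carrier Slc20a1 read just under the floor, at 1022 and 960. The iron carrier Slc11a2 was farther below it, at 590 and 680 by 1 probe set and at 746 and 374 by the other. For these 51 genes no difference could be measured at this signal, which does not show that they are silent or alike.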

How the data were processed

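Total RNA was measured on 4 one-colour arrays, with 1 array of type A and 1 of type B per genotype. Groups came from the sample titles. The source description of 1 deficient array does not repeat the deficiency that its title states. The deposited values are intensities, from the values themselves, as whole numbers with 20.6% to 29.3% below 0; software, background correction and scaling by the authors: not given in the sources used here. Arrays of a type were brought to a common mean after trimming 2% at each end, and the floor, ratios, bounds and 2-fold count were as described above. A gene was read by its measured probe set with the highest signal over the floor. All 110 carrier genes matched a gene ID in RefSeq on GRCm38.p6.

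The members, groups and lists were chosen with earlier results of these data known. Genes are named by rule: those past 2-fold, the highest and lowest of each group, all measured glucose and amino acid carriers, probe sets far apart, opposed family members and bright members. Others named for contrast were chosen after their values were seen. No test was run and no p-value is given, for lack of replicates, and the number of arrays limits the precision. Alternatives were loess (span 0.3), quantile, equal-median, bacterial-control and no scaling, floors at the 30th and 70th percentile, 3-fold, no suffixed probe sets, 1 array type at a time, mean probe sets, genes in place of probe sets, bounds entered and means. The procedure was tested on simulated data, with known differences placed in bright wild-type signals and no noise added. That checks the calculation and not the differences of dim carriers. Versions were matplotlib 3.10.9, statsmodels 0.14.6, scipy 1.17.1, pandas 2.3.3, numpy 2.4.6 and Python 3.11.15.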

Additional observations from a re-analysis of the deposited data

How the results depend on the processing

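The count of carrier probe sets higher by 2-fold or more, 0 as reported, was 1 with equal medians, 4 under bacterial-control scaling and 3 for a floor at the 30th percentile. Over the series these settings gave 184 of 5892, 488 of 5871 and 660 of 8426, against 200 of 5903 as reported. The count lower by 2-fold or more, 1 as reported, was 5 for the floor at the 30th percentile. It was 0 for a floor at the 70th percentile, at 3-fold and on array type B alone. Over the series the lower count was 630 of 8426, 67 of 3467 and 111 of 2954 for the 2 floors and for B, against 204 of 5903 as reported. No series count is given at 3-fold. The glucose median, 0.67, was -0.23 on A alone, where Slc2a2 is not measured, and 0.071 as a mean, so it rests on 3 genes that disagree. The mitochondrial median, 0.07, was -0.32 on B alone with 3 genes. The other 76 alternative values of these 7 summaries moved by less than 0.38 log2 units or kept their count. For 1 gene at a time, 539 alternative values moved by less than that and 28 by more or went between ratio and bound, and the cause was not tested. A gene left without a ratio or bound in a setting had no value there and is not in these counts. Slc7a2, Slc7a6, Slc7a8 and Slc1a5 dropped out so at the 70th-percentile floor, and Slc3a2 and Slc7a6 without suffixed probe sets. Medians near 0 turned sign in several settings. That of all carriers did so under bacterial-control scaling (0.19) and the 70th-percentile floor (0.02), and that of the ions and others in 4 settings, up to 0.20. The mitochondrial one did so in 3, on B alone, at the 70th-percentile floor and as a mean, down to -0.32, and the amino acid one in 0. No paired analysis was possible because each array type holds 1 array per genotype. On B alone the amino acid group had 1 measured gene and the glucose group 1, so no median is given. At the 70th-percentile floor only Slc2a8 of the glucose group kept a ratio, so no glucose median is given there either.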
